A study of Mus musculus with 9 samples.

Results

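The glycolytic enzymes of quadriceps muscle are described here through 10 genes, Hk2, Pfkm, Pfkfb1, Aldoa, Tpi1, Pgam2, Eno3, Pkm, Ldha and Ldhb, which were chosen by name from a table of 13116 genes. All 10 were present and all 10 passed the filter on low values. The symbol Aldoa stood on 2 identifiers, of which the abundant one is used. Polyadenylated RNA came from the quadriceps of male mice aged 18 months in 3 groups of 3. KO_secGAA mice carried a Gaa knockout and had received the vector AAV8-sp7-delta8-hGAAco in a tail vein at 9 months of age, KO_PBS mice carried the same knockout and had received PBS, and WT_PBS mice were wild type and had received PBS. Gaa encodes acid alpha-glucosidase, the lysosomal enzyme that digests glycogen and is missing in Pompe disease, and the vector, by the title of the series, provides a secretable form of the enzyme from the liver. The strain and the kind of knockout allele are not given in the labels. The labels do not say that each library is a separate animal, so the p-values measure the spread between these libraries. The comparison of KO_PBS with WT_PBS asks what loss of the enzyme leaves in the muscle, and the comparisons of KO_secGAA with both other groups ask how far treatment late in the disease moves it.

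Glycolysis turns glucose into pyruvate in the cytosol and yields ATP without oxygen. Fast muscle fibres depend on it during short, hard work and draw their glucose units from cytosolic glycogen, whereas glycogen that reaches the lysosome is released only by acid alpha-glucosidase. Lactate dehydrogenase then converts pyruvate to lactate, which regenerates the NAD+ that the pathway consumes. In humans, inherited loss of PFKM, ALDOA, PGAM2, ENO3 or LDHA is itself a muscle glycogen storage disease.

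Each library held 10495715 to 14406655 reads in KO_secGAA, 9299156 to 14355201 in KO_PBS and 15477523 to 15957106 in WT_PBS. Values are normalized counts, that is reads scaled to the library total and to a factor for each library, and 1 read was worth 0.0652 to 0.0922. Gaa itself averaged 15.8 ± 0.78 normalized counts in KO_secGAA, 15.4 ± 2.1 in KO_PBS and 230 ± 89 in WT_PBS (SD, n = 3 each), lower in both knockout groups, as their labels have it. Changes are log2 fold changes of log2(value + 0.5) from limma, with Benjamini-Hochberg adjustment over all 13089 genes tested, and a gene is said to have risen or fallen where the adjusted p was under 0.05.

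Under the deposited scaling most of the 10 genes were lower in untreated knockout muscle. Of the 10 genes, 7 fell in KO_PBS against WT_PBS and 0 rose: Pfkfb1, Pgam2, Tpi1, Eno3, Ldha, Pkm and Pfkm. The share of all genes tested that fell in this comparison was 11.0%, and 21.9% changed in either direction. The median change of the 10 genes was -0.54, against 0.01 over all genes tested. For 8 of the 10, the 7 that fell and Aldoa, every KO_PBS library lay below every WT_PBS library, which held for 19.0% of all genes tested. These counts depend on the scaling. Without scaling factors 4 of the 10 genes fell, where 4984 of all 13089 genes tested were called in either direction. Under quantile normalization 2 of the 10 fell, where 2849 of all genes were called.

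In treated knockout muscle 3 of the 10 genes rose against KO_PBS, Pfkfb1, Tpi1 and Pgam2, and 0 fell, where 1.37% of all genes tested rose and 3.67% changed in either direction. The median change of the 10 was 0.36, against 0.00 over all genes. Every KO_secGAA library lay above every KO_PBS library for 7 of the 10, where 11.7% of all genes did so. Against WT_PBS, 0 of the 10 passed in KO_secGAA by limma at an adjusted p under 0.05, beside 3.72% of all genes tested. An unadjusted p under 0.05 was reached by 3 of the 10, and the share of all genes that reached it was not counted. The edgeR quasi-likelihood test and limma voom also called 0, while DESeq2 called 3, Pgam2, Eno3 and Tpi1, all lower in KO_secGAA. Of all 13089 genes tested, DESeq2 called 1022 in this comparison and limma 487. The median of the 10 was -0.24, and for 4 of them, Tpi1, Pgam2, Eno3 and Pkm, every KO_secGAA library lay between the KO_PBS and the WT_PBS libraries without touching either. Every KO_secGAA library was below every WT_PBS library for 13.3% of all genes. The share of all genes between both groups in this way was not counted, and it cannot exceed the 11.7% above KO_PBS. The comparisons share libraries, so their values for a gene are set side by side and not tested against each other.

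**Figure D1:**
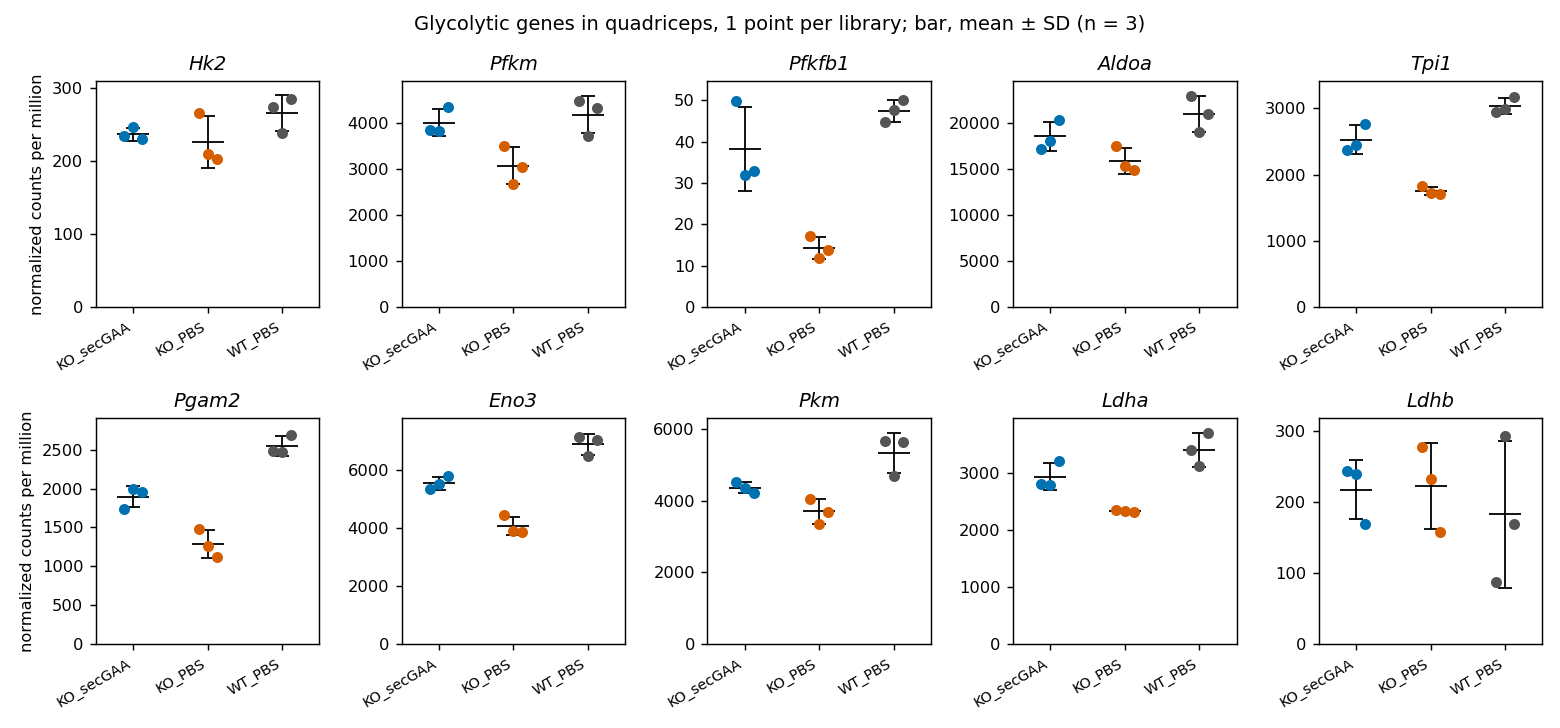
Normalized counts of the 10 glycolytic genes, 1 panel per gene and 1 point per library, with the mean and SD of each group of 3; each vertical axis starts at 0. In Tpi1, Pgam2, Eno3 and Pkm the KO_secGAA points lie between the KO_PBS and WT_PBS points, and in Hk2 and Ldhb the groups overlap.

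Levels differed widely between the genes. Per kilobase of exon in WT_PBS, Aldoa stood highest at 7225 ± 682 normalized counts, followed by Eno3 at 3959 ± 211 and Pgam2 at 3033 ± 151 (SD, n = 3). Pfkm at 1250.1 ± 121, Tpi1 at 1102 ± 43.9, Pkm at 1066 ± 111 and Ldha at 1029 ± 89.7 came next, and each of these overlapped with its neighbour in the order. Ldhb at 116 ± 66, Hk2 at 44.4 ± 4.1 and Pfkfb1 at 11.8 ± 0.66 followed, without overlap between neighbours. The first 3 and the last 3 places were the same in all 3 groups, while Tpi1 held place 5 in KO_secGAA, place 7 in KO_PBS and place 5 in WT_PBS. Dividing by the longest transcript changed the order of the 4 genes in the middle. The 10 genes together took 4.04 ± 0.097% of the reads in KO_secGAA, 3.63 ± 0.19% in KO_PBS and 4.20 ± 0.33% in WT_PBS (SD, n = 3 each), and Aldoa alone was 45.0% to 47.3%, 48.1% to 49.4% and 43.7% to 46.5% of that sum in those groups. In bulk tissue, fewer cells of a type and less RNA per cell cannot be told apart.

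Glucose enters the pathway through hexokinase, and Hk2 is the isozyme of insulin-responsive muscle (GRCm38, chromosome 6, 82725025 to 82774454). Hk2 had 234, 246 and 229 normalized counts in KO_secGAA, 266, 209 and 202 in KO_PBS and 273, 238 and 284 in WT_PBS. The 3 groups overlapped, and its change of -0.24 ± 0.11 (SE) in KO_PBS against WT_PBS had an adjusted p of 0.17 by limma. Without the highest KO_PBS library, replicate 1, the change was -0.36 with an adjusted p of 0.036 by limma, so 1 library set that call. The change in KO_secGAA against KO_PBS was 0.08 ± 0.11, with an adjusted p of 0.77 by limma.

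The ubiquitous isozyme Hk1, which is no member of the 10, was higher in KO_PBS at a low level. It had 12.1, 10.8 and 9.76 normalized counts in KO_secGAA, 21.8, 21.7 and 24.1 in KO_PBS and 7.92, 6.22 and 6.995 in WT_PBS, with no overlap between any 2 groups. Hk1 rose by 1.62 ± 0.13 in KO_PBS against WT_PBS (adjusted p 5.2e-05, limma) and fell by 1.02 in KO_secGAA against KO_PBS (adjusted p 0.0043, limma), and both calls held in every alternative setting tried. Per length, Hk2 was 96.9 ± 0.33% of the Hk1 and Hk2 reads in KO_secGAA, 93.4 ± 1.1% in KO_PBS and 98.2 ± 0.15% in WT_PBS (SD, n = 3 each). Markers of other cell types moved with Hk1. Of 18 macrophage markers 6 rose in KO_PBS against WT_PBS, with Lgals3, Cd68, Mpeg1 and Lyz2 at the smallest adjusted p, and 0 fell. Without scaling factors 13 rose. Over the whole list the summed level was 181 to 384 normalized counts in KO_secGAA, 392 to 528 in KO_PBS and 133 to 209 in WT_PBS. Of 10 genes of satellite cells and regenerating fibres 6 rose, with Ncam1, Chrna1, Myl4 and Mymk at the smallest adjusted p, and 0 fell, with summed levels of 125 to 162, 181 to 308 and 64.2 to 96.9 normalized counts in KO_secGAA, KO_PBS and WT_PBS. None of these 28 markers was at 0 reads in any library, and their part in the Hk1 values was not tested. The exons of Hk1 also overlap the antisense gene Hk1os.

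Phosphofructokinase commits the sugar to glycolysis, and Pfkm encodes its muscle isozyme (chromosome 15, 98092589 to 98132451). Pfkm had 3837, 3826 and 4342 normalized counts in KO_secGAA, 3495, 2686 and 3039 in KO_PBS and 4480.1, 3717 and 4329 in WT_PBS. All KO_PBS libraries were the lowest, and KO_secGAA overlapped with WT_PBS. Its log2 value fell by 0.45 in KO_PBS relative to WT_PBS (SE 0.14, adjusted p 0.043, limma). This call was close to the threshold: the adjusted p by limma was 0.056 to 0.16 without WT_PBS replicate 1 or 3, KO_PBS replicate 2 or 3, or KO_secGAA replicate 1 or 2. It was also lost without scaling factors, where the change was -0.13. The change of 0.39 ± 0.14 in KO_secGAA against KO_PBS did not pass by limma (adjusted p 0.16), and Pfkm was 99.7% to 99.8% of the length-scaled reads of Pfkm, Pfkl and Pfkp in each group.

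Pfkfb1 makes and removes fructose 2,6-bisphosphate, the strongest activator of phosphofructokinase, and is transcribed in liver and muscle forms (chromosome X, 150588229 to 150643878). It was the least abundant of the 10 and moved the most. Pfkfb1 had 49.8, 31.9 and 32.9 normalized counts in KO_secGAA, 17.3, 11.9 and 13.9 in KO_PBS and 44.7, 47.6 and 50.004 in WT_PBS. The KO_PBS libraries lay far below both other groups, and 1 KO_secGAA library was inside the WT_PBS range while the other 2 were under it. Pfkfb1 fell to 30.3% of the WT_PBS mean in KO_PBS, a change of -1.70 ± 0.18 (adjusted p 0.00024, limma). It rose in KO_secGAA to 266% of the KO_PBS mean, a change of 1.36 ± 0.18 (adjusted p 0.005, limma). Both calls held in every alternative setting tried, the second also without the high KO_secGAA library, where the change was 1.16. The other genes of this family did not pass in either comparison, and Pfkfb3 ranged from 34.6 to 303 normalized counts over the 9 libraries.

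**Figure D2:**
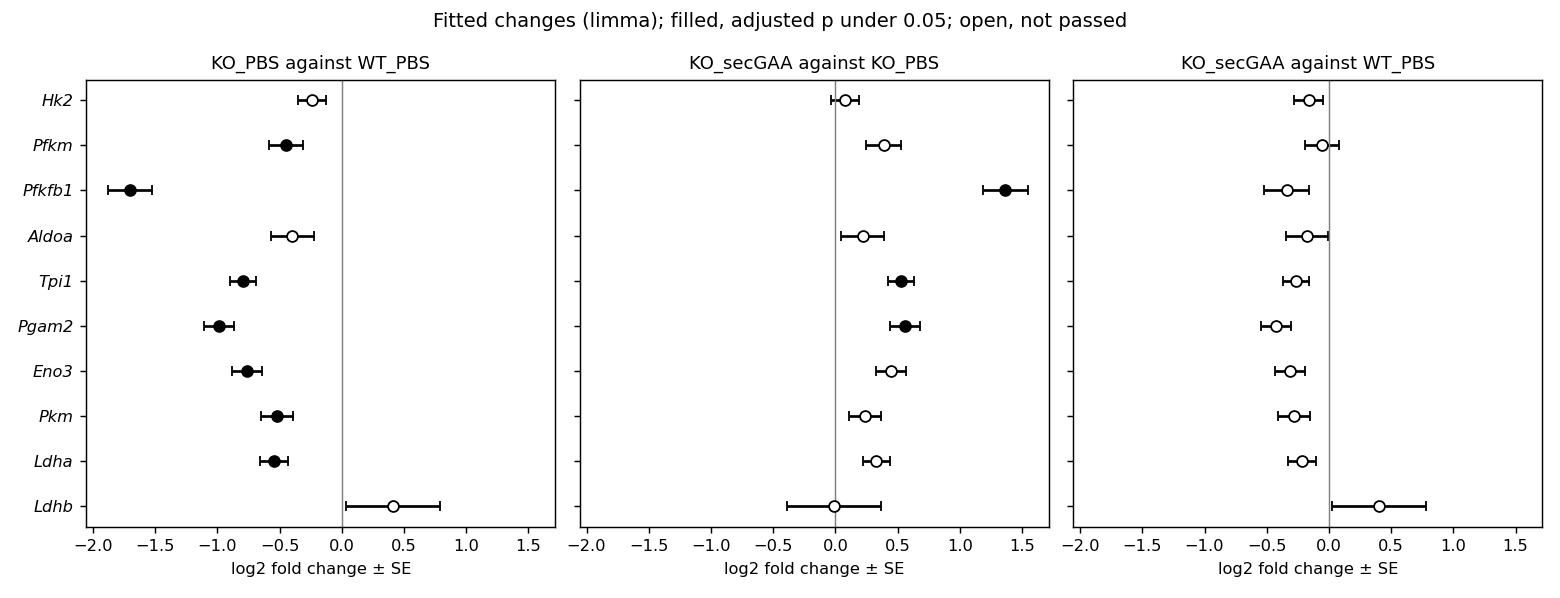
Log2 fold changes with their standard errors for the 10 genes in the 3 comparisons, from limma; filled circles passed an adjusted p of 0.05 and open ones did not. Filled circles are on the left in KO_PBS against WT_PBS (7) and on the right in KO_secGAA against KO_PBS (3), and there are 0 in KO_secGAA against WT_PBS.

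Aldolase and triosephosphate isomerase carry the sugar through its split into trioses. Aldoa, the muscle aldolase (chromosome 7, 126795234 to 126800751), had 17274, 18126 and 20375 normalized counts in KO_secGAA, 17584, 15337 and 14969 in KO_PBS and 23017.5, 19049.5 and 21033 in WT_PBS. The KO_PBS libraries were below all WT_PBS libraries, but the change of -0.40 ± 0.17 did not pass by limma (adjusted p 0.13). The same change passed with the count models, at adjusted p values of 0.044 by edgeR, 0.033 by limma voom and 0.0035 by DESeq2. A second identifier with the symbol Aldoa, whose exons lie next to it on the same strand (126800790 to 126809108), had 8.99, 7.91 and 9.33 normalized counts in KO_secGAA, 4.27, 5.48 and 8.96 in KO_PBS and 14.2, 14.7 and 12.2 in WT_PBS. It fell by 1.13 in KO_PBS against WT_PBS (SE 0.22, adjusted p 0.0061, limma).

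Tpi1, the triosephosphate isomerase (chromosome 6, 124810586 to 124814296), had 2361, 2451 and 2767 normalized counts in KO_secGAA, 1829, 1716 and 1711 in KO_PBS and 2942, 2989 and 3170.3 in WT_PBS. The 3 groups did not overlap. Tpi1 fell by 0.79 in KO_PBS against WT_PBS (SE 0.10, adjusted p 0.00078, limma) and rose by 0.53 in KO_secGAA against KO_PBS (SE 0.10, adjusted p 0.027, limma). The rise was lost, at an adjusted p of 0.056 to 0.10 by limma, without WT_PBS replicate 3, any one KO_PBS replicate, or KO_secGAA replicate 2 or 3, while its size stayed between 0.46 and 0.56. KO_secGAA reached 83.3% of the WT_PBS mean, a change of -0.27 that did not pass (adjusted p 0.17, limma).

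The lower steps turn phosphoglycerate into pyruvate. Pgam2, the muscle phosphoglycerate mutase (chromosome 11, 5801640 to 5803733), had 1741, 1990.3 and 1952 normalized counts in KO_secGAA, 1484, 1260.3 and 1126 in KO_PBS and 2480.5, 2468 and 2694 in WT_PBS. The groups did not overlap, and the KO_PBS mean was 50.6% of the WT_PBS mean. Pgam2 fell by 0.99 in KO_PBS against WT_PBS (SE 0.12, adjusted p 0.00056, limma), and this call held in every alternative setting tried. It rose by 0.56 in KO_secGAA against KO_PBS (SE 0.12, adjusted p 0.038, limma). That rise was lost, at an adjusted p of 0.052 to 0.13 by limma, without WT_PBS replicate 2 or 3, KO_PBS replicate 2 or 3, or any one KO_secGAA replicate, with a size between 0.47 and 0.62. The KO_secGAA mean was 74.4% of the WT_PBS mean, the lowest such share among the 10 genes, and the change of -0.43 ± 0.12 did not pass by limma (adjusted p 0.081).

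Eno3, the muscle enolase (chromosome 11, 70657202 to 70662513), had 5344, 5516 and 5785 normalized counts in KO_secGAA, 4443, 3891 and 3879 in KO_PBS and 7149.9, 6466 and 7040.3 in WT_PBS. Again the 3 groups did not overlap. Eno3 fell by 0.76 in KO_PBS against WT_PBS (SE 0.12, adjusted p 0.0022, limma), and the change of 0.45 in KO_secGAA against KO_PBS did not pass by limma (adjusted p 0.077) but passed by edgeR (adjusted p 0.041). Over the 9 libraries, Tpi1 and Eno3 were each other's closest gene among all genes tested, with a root mean square difference of 0.0659 between their centred log2 values.

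Pkm, the pyruvate kinase of muscle (chromosome 9, 59656368 to 59679375), had 4513, 4354 and 4223 normalized counts in KO_secGAA, 4053, 3362 and 3694 in KO_PBS and 5659, 4690.4 and 5643 in WT_PBS. The groups did not overlap. Pkm fell by 0.52 in KO_PBS against WT_PBS (SE 0.13, adjusted p 0.017, limma), a call lost without WT_PBS replicate 3 (adjusted p 0.077, limma) or KO_PBS replicate 2 (adjusted p 0.079, limma). The sources used here do not state if reads were counted by strand, and the exons of Pfkm, Pfkfb1, Aldoa and Tpi1 overlap genes on the other strand, so some of their reads may belong to those genes. Counts per gene do not tell its splice forms M1 and M2 apart, and 21.97% of its 61-base stretches, the read length, also occur in other annotated genes.

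To show what lies upstream of these genes, the promoter was read for members with a single start in the RefSeq table (GRCm38.p6). Members whose window reaches into the annotated extent of the gene itself were left out, which leaves 4 genes. Overlap of the windows with other genes was not checked. Each window holds the 250 bases before the start. Pgam2 and Eno3 fell in KO_PBS, while Hk2 and Ldhb did not pass. Capitals mark matches on either strand to ACGTG (the core read by hypoxia-inducible factors), AAGGTCA (estrogen-related receptors), CAGCTG (an E box of myogenic factors), TCAGGTT (the MEF3 site) or the MEF2 motif. The windows are chr11:5803797-5804046 on the minus strand for Pgam2, chr11:70656926-70657175 on the plus strand for Eno3, chr6:82774455-82774704 on the minus strand for Hk2 and chr6:142507958-142508207 on the minus strand for Ldhb.
Pgam2: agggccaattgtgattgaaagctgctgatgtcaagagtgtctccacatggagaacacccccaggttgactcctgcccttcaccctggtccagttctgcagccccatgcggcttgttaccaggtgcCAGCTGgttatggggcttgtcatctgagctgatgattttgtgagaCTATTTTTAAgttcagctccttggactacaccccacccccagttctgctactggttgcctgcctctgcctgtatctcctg
Eno3: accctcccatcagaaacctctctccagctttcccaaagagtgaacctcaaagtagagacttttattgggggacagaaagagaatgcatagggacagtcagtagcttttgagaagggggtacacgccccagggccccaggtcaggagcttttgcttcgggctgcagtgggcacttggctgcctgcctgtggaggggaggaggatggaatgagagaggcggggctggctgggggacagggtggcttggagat
Hk2: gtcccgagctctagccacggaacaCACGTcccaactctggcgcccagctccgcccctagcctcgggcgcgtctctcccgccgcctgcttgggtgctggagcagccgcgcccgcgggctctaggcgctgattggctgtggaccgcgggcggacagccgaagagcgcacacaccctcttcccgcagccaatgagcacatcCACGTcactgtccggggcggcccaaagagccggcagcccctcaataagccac
Ldhb: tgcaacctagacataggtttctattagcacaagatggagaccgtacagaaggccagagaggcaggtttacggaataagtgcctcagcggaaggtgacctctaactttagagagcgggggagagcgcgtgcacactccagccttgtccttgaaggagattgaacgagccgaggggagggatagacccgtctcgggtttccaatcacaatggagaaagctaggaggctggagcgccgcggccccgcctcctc
The Pgam2 window held a CAGCTG that began 125 bases and a MEF2 match that began 80 bases before the start. The Hk2 window held ACGTG, in its reverse form, 226 and 52 bases before the start. In the Eno3 and Ldhb windows none of these letters occurred, which says nothing about binding. Over all 20 RefSeq windows of the 10 genes, ACGTG was found for 5 genes (Hk2, Pfkm, Aldoa, Pkm and Ldha), CAGCTG for 3 (Pfkfb1, Pgam2 and Pkm), MEF2 for 2 (Pfkfb1 and Pgam2), AAGGTCA for 1 (Pfkfb1) and TCAGGTT for 0. Among all 32851 windows in the table the shares were 16.6% for ACGTG, 13.0% for CAGCTG, 2.92% for MEF2, 4.08% for AAGGTCA and 3.49% for TCAGGTT. Counted by gene, with a match in any of its windows, they were 18.5%, 14.7%, 3.4%, 4.7% and 4.1% of 27025 genes, in that order. Several of the 10 genes have more than 1 window, so their chance to hold a motif is larger than that of a gene with a single start.

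Lactate dehydrogenase is a tetramer of A subunits, which dominate in fast muscle, and B subunits, which dominate in heart and slow fibres. Ldha (chromosome 7, 46841475 to 46855627) had 2797, 2792 and 3204 normalized counts in KO_secGAA, 2352, 2324.5 and 2307 in KO_PBS and 3402.5, 3112 and 3706 in WT_PBS. The KO_PBS libraries lay below both other groups, which overlapped. Ldha fell by 0.55 in KO_PBS against WT_PBS (SE 0.11, adjusted p 0.0074, limma), and the change of 0.33 ± 0.11 in KO_secGAA against KO_PBS did not pass by limma (adjusted p 0.14).

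Ldhb (chromosome 6, 142490249 to 142507957) had 243, 239.6 and 169 normalized counts in KO_secGAA, 278, 232 and 157 in KO_PBS and 87.0, 293 and 168 in WT_PBS. The groups overlapped wholly, and the change of 0.41 ± 0.38 in KO_PBS against WT_PBS had an adjusted p of 0.475 by limma. It was -0.036 without WT_PBS replicate 1, so its sign rested on that library. Per length, Ldha made up 86.4 ± 3.1% of the Ldha and Ldhb reads in KO_secGAA, 83.4 ± 3.7% in KO_PBS and 89.9 ± 5.8% in WT_PBS (SD, n = 3 each), with overlap. The summed level of 10 slow fibre genes differed in the same libraries. It was 588, 322 and 1126 normalized counts in KO_secGAA, 2622, 817 and 625 in KO_PBS and 76.7, 539 and 180.1 in WT_PBS. Within KO_PBS and within WT_PBS the libraries had the same order by both values, and within KO_secGAA the library with the most slow fibre transcripts had the least Ldhb. The part of fibre type in the Ldhb values was not tested.

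**Figure D3:**
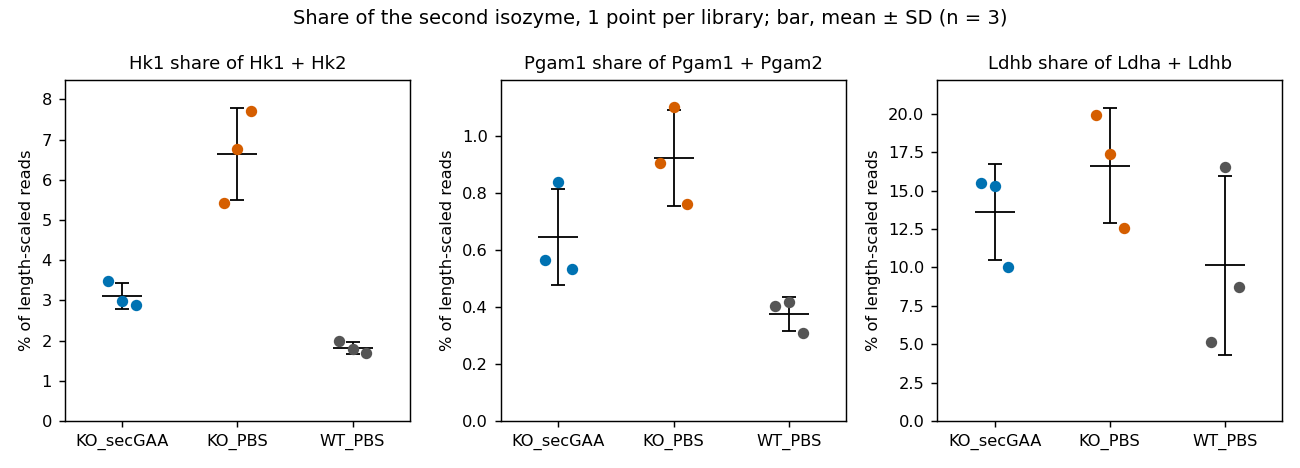
Share of the second isozyme in the length-scaled reads of its pair, in percent, for Hk1 with Hk2, Pgam1 with Pgam2 and Ldhb with Ldha; points are libraries, bars the mean and SD of 3. The Hk1 share averaged 3.12% in KO_secGAA, 6.63% in KO_PBS and 1.82% in WT_PBS, and the Ldhb shares overlap.

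Other genes of the pathway did not all follow the 10. Of 14 further glycolytic enzymes and isozymes in the table, 1 rose (Hk1) and 4 fell in KO_PBS against WT_PBS, with a median change of -0.05. Among those that fell were Bpgm, which makes 2,3-bisphosphoglycerate, at 59.7 ± 3.0 normalized counts in KO_PBS and 110.5 ± 4.3 in WT_PBS (adjusted p 0.00013, limma), Pgk1 and Ldhd. Bpgm rose in KO_secGAA, with 99.9, 91.6 and 108 normalized counts against 59.9, 56.5 and 62.6 in KO_PBS (change 0.74, adjusted p 0.0031, limma). Gapdh, which oxidises glyceraldehyde phosphate, did not pass in any comparison and had 1554, 1548 and 1697 normalized counts in KO_secGAA, 1899, 1570.03 and 1432 in KO_PBS and 1930.3, 1759.6 and 1918 in WT_PBS. Gpi1, the glucose phosphate isomerase, did not pass either. Pgk1 and Gapdh share 53.4% and 23.9% of their 61-base stretches with pseudogenes, so their counts are uncertain.

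Around the pathway, 5 of 14 regulators and side-branch enzymes fell in KO_PBS against WT_PBS and 0 rose. Gpd1, the cytosolic enzyme of the glycerol phosphate shuttle that takes electrons from glycolytic NADH to the mitochondrion, had 404, 399 and 468 normalized counts in KO_secGAA, 213, 199 and 256 in KO_PBS and 669, 542 and 633 in WT_PBS. The 3 groups did not overlap. Gpd1 fell by 1.47 in KO_PBS against WT_PBS (adjusted p 6.2e-05, limma) and rose by 0.93 in KO_secGAA against KO_PBS (adjusted p 0.005, limma). Its mitochondrial partner Gpd2 fell by 0.98 (adjusted p 0.0022, limma), the phosphoglucomutase named Pgm2 in the files by 0.80 (adjusted p 0.00345, limma) and Tigar, a phosphatase of fructose 2,6-bisphosphate, by 0.63 (adjusted p 0.0059, limma). The remaining gene that fell was Pgm2l1.

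Of 9 transporter genes, 1 rose and 5 fell in KO_PBS against WT_PBS. Slc16a3, the lactate exporter of glycolytic fibres, had 167, 211 and 269 normalized counts in KO_secGAA, 163, 120 and 122 in KO_PBS and 497, 272 and 360 in WT_PBS. It fell by 1.45 in KO_PBS (adjusted p 0.0023, limma), and its change of 0.67 in KO_secGAA against KO_PBS did not pass (adjusted p 0.16, limma). Slc2a4, the insulin-responsive glucose transporter, fell by 0.58 (adjusted p 0.0043, limma), Mpc2, a subunit of the mitochondrial pyruvate carrier, by 0.73 (adjusted p 0.0063, limma) and Slc2a3 by 1.54 (adjusted p 0.0069, limma). Mpc1 also passed, at an adjusted p of 0.047 by limma, but lost the call in 13 alternative settings. Slc2a1, the basal glucose transporter, rose by 1.76 in KO_PBS against WT_PBS (adjusted p 0.00045, limma), as Hk1 did.

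The next enzyme after pyruvate is the pyruvate dehydrogenase complex. Of 12 genes of the complex, its kinases and its phosphatases, 1 rose and 6 fell in KO_PBS against WT_PBS. Dlat, Pdhx, Dld and Pdhb, which are core subunits, fell by 0.53 to 0.60, and Pdpr, a regulator of the phosphatase, by 1.35 (adjusted p 0.00051, limma). The kinase Pdk2 also passed, but this call was lost in 15 alternative settings, edgeR and each single library left out among them, and the calls of Pdhb and Dld were lost in 6 and 5. Without scaling factors 1 of the 12 genes fell. Pdpr rose by 1.16 in KO_secGAA against KO_PBS (adjusted p 0.006, limma). The kinase Pdk3 rose by 1.61 in KO_PBS at a low level (adjusted p 0.0015, limma), and Pdk4, the kinase induced by fasting, ranged from 516 to 1723 normalized counts over the 9 libraries and did not pass. Of 21 transcription factors known to bind glycolytic genes, 2 rose (Esrrg and Myc) and 3 fell (Mlxipl, Mlxip and Epas1), with a median of -0.06. Without scaling factors 6 of them rose and 0 fell by limma, and the calls of Epas1, Mlxip, Myc and Mlxipl were lost in 7, 6, 4 and 3 alternative settings. Hif1a and the Mef2 genes did not pass. In KO_secGAA against KO_PBS, Bpgm, Gpd1 and Pdpr rose, Hk1 fell, and no other gene of these 5 lists passed. In KO_secGAA against WT_PBS, Hk1, Slc2a1, Pdk3 and Myc rose and Gpd1 fell (adjusted p 0.033 to 0.046, limma), and no other gene of the 5 lists passed. None of these 5 calls was stable: that of Gpd1 was lost in 12 alternative settings, Pdk3 in 11, Slc2a1 in 8, Hk1 in 7 and Myc in 6.

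**Figure D4:**
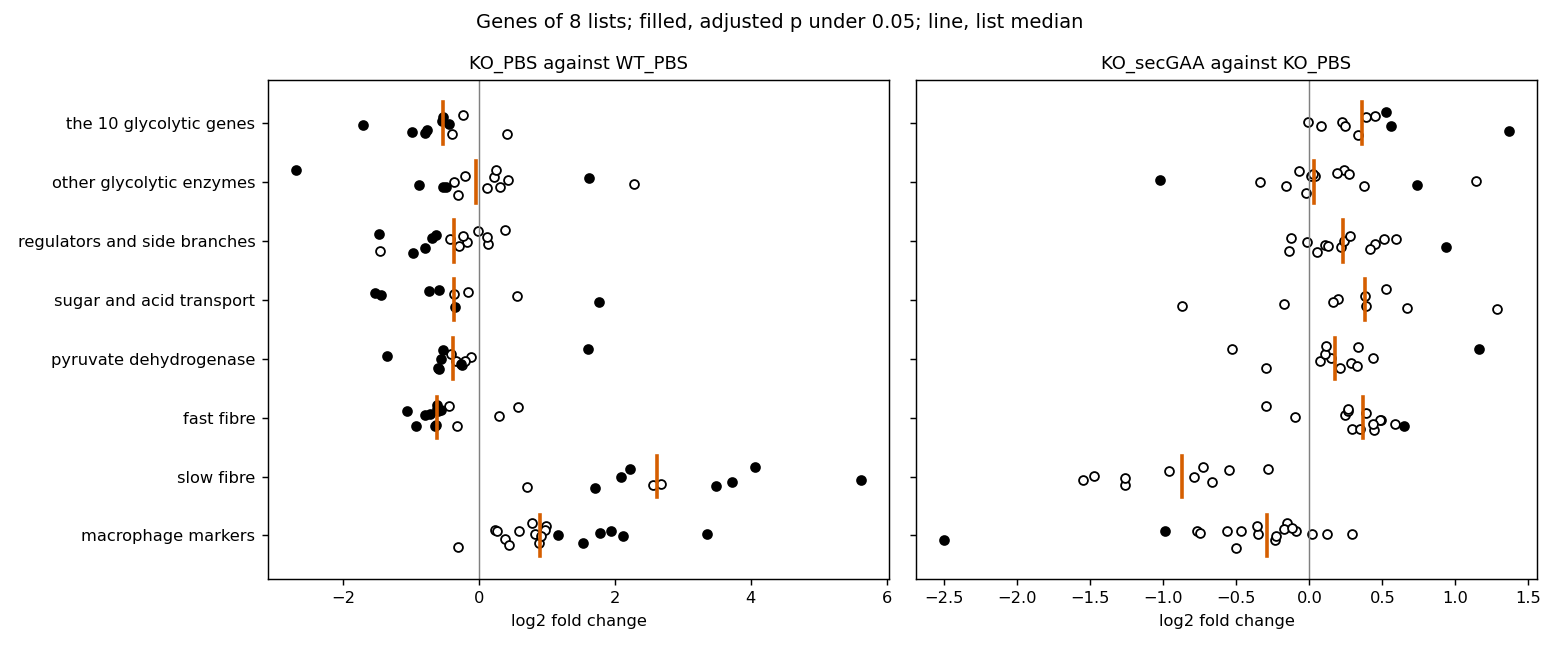
Log2 fold changes of the genes of 8 lists in KO_PBS against WT_PBS and in KO_secGAA against KO_PBS; filled circles passed an adjusted p of 0.05 by limma and the line is the list's median. The 10 glycolytic genes have medians of -0.54 and 0.36, fast fibre genes -0.61 and 0.37, and slow fibre genes 2.62 and -0.87.

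Most fast fibre transcripts were lower in KO_PBS as well under the deposited scaling. Of 14 fast fibre genes 9 fell and 0 rose in KO_PBS against WT_PBS, with a median of -0.61, led by Casq1, the calcium store protein of fast fibres, Mylk2, Tnnc2 and Pvalb. The other 5 did not pass, among them the myosin heavy chain genes Myh1, Myh2 and Myh4. Myh1 had 8488, 4708 and 5622 normalized counts in KO_PBS and 2923, 7854 and 5353 in WT_PBS. Myh2 had 2061, 1473 and 820 in KO_PBS and 326, 2345 and 988 in WT_PBS. Under quantile normalization 2 of them fell and the median was 0.01, and without scaling factors 3 fell and the median was -0.30. Casq1 alone rose in KO_secGAA against KO_PBS, with a median of 0.37 over the list, and that call was lost in 9 alternative settings. Their summed level was 149537 to 168382 normalized counts in KO_secGAA, 118129 to 127652 in KO_PBS and 156378 to 198819 in WT_PBS. Relative to the WT_PBS mean, the average log2 value of the 10 glycolytic genes was -0.17, -0.20 and -0.18 in KO_secGAA and -0.42, -0.67 and -0.70 in KO_PBS, and that of the fast fibre genes was -0.21, -0.21 and -0.13 in KO_secGAA and -0.40, -0.54 and -0.58 in KO_PBS. Of 12 general muscle fibre genes 7 fell, with Ak1, Myoz1, Tpm1 and Ckmt2 at the smallest adjusted p, and 1 rose, Des. That count was 1 fell and 1 rose without scaling factors, and 1 fell and 2 rose under quantile normalization. Of 10 slow fibre genes 7 rose, among them Casq2, Atp2a2, Myh7 and Tnnt1, and 7 also rose under both of those scalings. None of these fibre genes was at 0 reads in any library. When each library was shifted so that the fast fibre genes had the same mean, a scaling chosen after the data had been seen, 4 of the 10 genes were lower in KO_PBS than in WT_PBS, Pfkfb1, Tpi1, Pgam2 and Eno3, and 1, Hk2, was higher. Under that scaling 7764 of the 13089 genes tested were called in this comparison in either direction, with a median of 0.52. The count of the 10 called in either direction is no larger than that share. How many of all genes fell under that scaling was not counted, so the 4 falls have no matching share. In KO_secGAA against KO_PBS only Pfkfb1 passed under that scaling, with a change of 1.04. The part of fibre loss or fibre type in the remaining changes was not tested.

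Markers of other cell types changed in part. Of the genes tested in KO_PBS against WT_PBS, 6 of 12 endothelial markers fell (Esam, Robo4, Tie1 and Flt1 among them), 1 of 11 fibroblast markers rose (Lum), 1 of 9 adipocyte markers fell (Lipe), 1 of 8 smooth muscle and pericyte markers rose (Cspg4) and 1 fell (Rgs5), and 0 of 5 erythroid markers passed. Without scaling factors 0 endothelial, 0 adipocyte and 0 smooth muscle markers fell and 4 fibroblast markers rose. Of 14 immediate early genes, which respond to handling, 6 rose (Egr3, Junb, Ier3 and Egr1 among them) and 1 fell (Jun). In KO_secGAA against KO_PBS, 2 macrophage, 2 satellite cell and 2 fibroblast markers fell and 1 adipocyte marker rose, and no slow fibre, general muscle, endothelial, erythroid, smooth muscle or immediate early gene passed. In KO_secGAA against WT_PBS, 2 macrophage markers, 2 satellite cell genes and 1 immediate early gene rose, 1 general muscle gene fell, and 0 genes of the fast fibre, slow fibre and remaining lists passed by limma.

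The size of the falls depended on how the libraries were put on a common scale. Without any scaling factor the median of all genes moved to 0.31 in KO_PBS against WT_PBS and to -0.14 in KO_secGAA against KO_PBS. Then 4 of the 10 genes fell in KO_PBS, Pfkfb1, Tpi1, Pgam2 and Eno3, while Pfkm, Pkm and Ldha no longer passed (Ldha -0.23, adjusted p 0.082, limma), and the median change of the 10 was -0.22. Of all 13089 genes tested, 4984 were called in either direction without scaling factors, against 2867 under the deposited scaling. Outside the 10, the falls of Pgk1, Ldhd, Tigar, Slc2a4, Mpc1, Dlat, Pdhx, Dld, Pdhb, Pdk2, Mlxipl, Mlxip and Epas1 were lost there too. Under quantile normalization Pfkfb1 and Pgam2 fell, and Aldoa had a change of 0.20 and Pfkm of 0.17 that did not pass. With it 2849 of all genes tested were called in either direction. Both without scaling factors and under quantile normalization, the count of the 10 called was close to the share of all genes called. How many of all genes fell under these scalings was not counted. Tpi1 and Eno3 had changes of -0.33 and -0.34 under that normalization, with adjusted p values of 0.068 and 0.053 by limma. In KO_secGAA against KO_PBS, the rise of Tpi1 was 0.24 under quantile normalization and did not pass (adjusted p 0.27, limma). The fall of Pfkfb1 and Pgam2 was called under each of the 5 scalings.

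**Figure D5:**
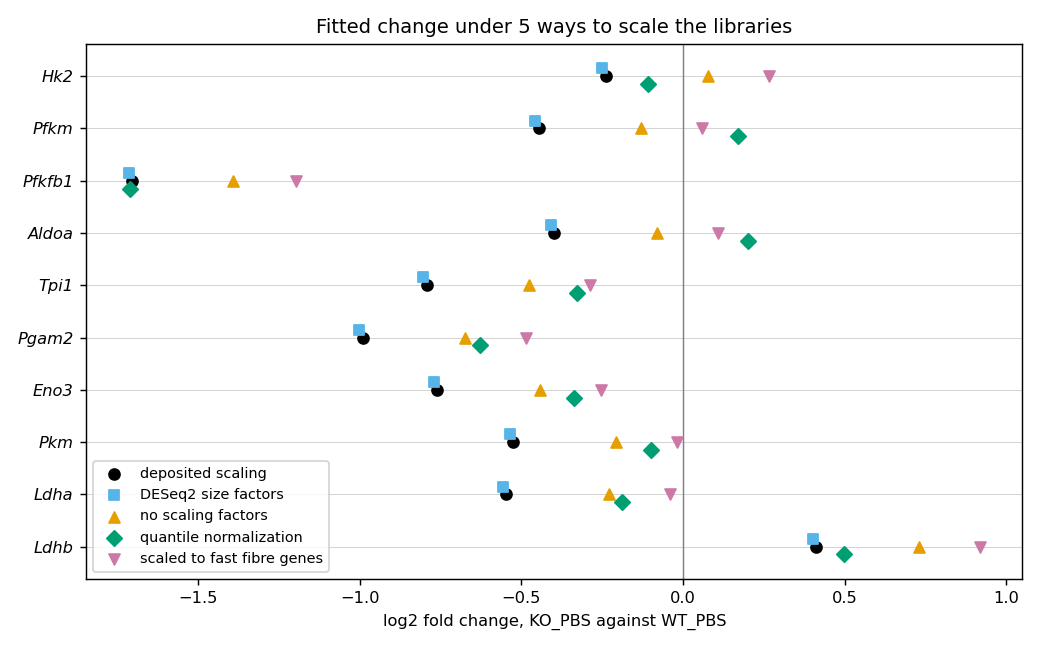
Log2 fold change of each of the 10 genes in KO_PBS against WT_PBS under 5 ways to scale the libraries, each marked by its own symbol. Pfkfb1 and Pgam2 lie left of 0 under every scaling, while Hk2, Pfkm and Aldoa lie on either side of 0.

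For the genes that ranged over at least 1 log2 unit, the closest other genes by root mean square difference of centred log2 values over the 9 libraries were looked up among all genes tested. For Pfkfb1 they were Magix at 0.243, Fam131a at 0.263 and Fam57b at 0.265. Pgam2 was closest to Mccc2 at 0.109, to Tnnc2, the troponin C of fast fibres, at 0.116 and to Coa7 at 0.117. Ldhb was closest to Homer2 at 0.0994, to Khdrbs3 at 0.178 and to Actn2, an actinin of the Z disc, at 0.190.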

How the data were processed

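Quadriceps RNA of 9 libraries (NEBNext Ultra kit, single-end reads of 61 bp on a HiSeq2500, per the labels' protocols) was given as 1 table. Its values were deposited by the authors as a signal that the table calls normalized counts. GRCm38, edgeR, limma, RSEM, cutadapt and CASAVA appear in the submitters' processing notes. Their versions and roles, and whether counting used strand, were not given in the sources used here. Every one of the 118044 values was a whole number of reads plus a constant, within a tolerance of 1e-06 (100%), and TMM factors of edgeR 4.0.16 on those reads gave the deposited signal back within 9.2e-08.

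The main test was limma 3.58.1 in R 4.3.3 on log2(signal + 0.5), all 9 libraries in 1 fit with 6 residual degrees of freedom, after removal of the 27 genes that did not reach 1 in 3 libraries. Alternatives were edgeR, DESeq2 1.42.0 and limma voom on recovered reads, other scalings, pseudocounts and filters, and leaving out each library. The test was also tried on simulated data. Reads were divided by exon length from GENCODE M21 (13111 of 13116 identifiers matched) for levels and isozyme shares. Sequences are from RefSeq. With 3 against 3 libraries the smallest exact p for a single value is 0.1, so shares are given without a test.

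The 10 genes and all lists were chosen with earlier results of these data known. Named from each list were up to 4 genes with the smallest adjusted p in each direction in KO_PBS against WT_PBS, and as close genes the 3 nearest of each member ranging over 1 log2 unit or more. Genes named beyond this (Gapdh, Gpi1, Hif1a, Mef2 genes, Pdhb, Pfkfb3, Pdk4, Pdk2, Mpc1, Pgm2l1, Eno1, Eno1b, Cd163, Myh1, Myh2, Myh4, Dcun1d2, Adssl1, and Tpi1 with Eno3 as a pair) were chosen after their values were seen. 1 gene that this rule would name is not reported here.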

Additional observations from a re-analysis of the deposited data

How the results depend on the processing

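The count of the 10 genes called in KO_PBS against WT_PBS was 7, and it was 4 without scaling factors, 2 under quantile normalization and 5 to 8 with 1 library left out. Of all 13089 genes tested, 2867 were called in the main fit, 4984 without scaling factors and 2849 under quantile normalization. Without scaling factors and under quantile normalization the count of the 10 was close to the share of all genes called. With 1 library left out, 1744 to 2847 were called. In KO_secGAA against KO_PBS the count of the 10 was 3, and it was 6 with DESeq2, 1 when scaled to the fast fibre genes (chosen after seeing the data) and 1 to 3 with 1 library left out. The 1 was reached without WT_PBS replicate 3, KO_PBS replicate 2 or 3, or KO_secGAA replicate 2 or 3. All genes called in this comparison numbered 481 in the main fit, 798 with DESeq2 and 3705 when scaled to the fast fibre genes. They numbered 159 to 568 with 1 library left out. In KO_secGAA against WT_PBS the count of the 10 was 0, with 3 by DESeq2, where 487 and 1022 of all genes were called. The cause was not tested. Of the changes of single genes, 23 of the alternative values turned sign, none of them in Pfkfb1, Tpi1, Pgam2, Eno3 or Ldha. In KO_PBS against WT_PBS, Hk2 was 0.077 without scaling factors, and with scaling to the fast fibre genes Hk2 was 0.27, Pfkm 0.060 and Aldoa 0.11. Under quantile normalization Pfkm was 0.17 and Aldoa 0.20. In KO_secGAA against KO_PBS, Hk2 was -0.077 without scaling factors, Aldoa -0.11 under quantile normalization, and Hk2 -0.24, Aldoa -0.10 and Pkm -0.081 when scaled to the fast fibre genes. In KO_secGAA against WT_PBS without scaling factors Hk2 was 8.66e-05 and Pfkm 0.10; under quantile normalization Pfkm was 0.26 and Aldoa 0.091; scaled to the fast fibre genes Hk2 was 0.022, Pfkm 0.13 and Aldoa 0.0074. With 1 library left out, Ldhb ranged from -0.036 to 0.84 in KO_PBS against WT_PBS, from -0.24 to 0.17 in KO_secGAA against KO_PBS and from -0.049 to 0.82 in KO_secGAA against WT_PBS.

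Shares are listed here only where they moved from the main setting by at least the SD of their group, so WT_PBS is left out where it moved less. The share of reads in the 10 genes was 3.20% in KO_secGAA, 2.94% in KO_PBS and 3.22% in WT_PBS per kilobase of exon, and 4.16% in KO_secGAA and 3.85% in KO_PBS per kilobase of the longest transcript. With the longest transcript the Hk2 share was 94.4% in KO_secGAA, 88.4% in KO_PBS and 96.7% in WT_PBS, the Pfkm share 99.67%, 99.61% and 99.67%, the Eno3 share 98.8%, 98.7% and 99.0%, and the Ldha share 90.6% in KO_secGAA and 88.3% in KO_PBS. The labels share no replicate numbers between groups. No paired analysis was possible because of this. Depth does not limit the 10 genes, of which the lowest had 151 reads in a library.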

Other observations

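Eno1, the enolase of most tissues, and its near copy Eno1b share 73.2% of the 61-base stretches of Eno1b, and their values moved against each other from library to library. Eno1 had 96.8, 100.5 and 70.3 normalized counts in KO_secGAA, 57.05, 87.6 and 62.9 in KO_PBS and 125.0, 61.4 and 87.8 in WT_PBS. Eno1b had 32.4, 32.2 and 79.8 normalized counts in KO_secGAA, 64.1, 28.4 and 63.9 in KO_PBS and 0.0343, 64.4 and 29.4 in WT_PBS, where the lowest is 0 reads. Their sum varied less, with 129, 133 and 150.1 normalized counts in KO_secGAA, 121, 116 and 127 in KO_PBS and 125, 126 and 117 in WT_PBS. Neither gene passed in any comparison by limma.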
